A study of Mus musculus with 4 samples.

Results

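Heat shock proteins and chaperones were followed in cultured mouse cortical neurons given the p53 activator Nutlin-3 or its solvent. The genes were chosen by symbol, with earlier results of these data known. The symbols were HSP70, HSP90, small HSP, HSP60 and HSP10 names, the DNAJA, DNAJB and DNAJC families, the CCT subunits with Tcp1, and Hsf1, Hsf2, Bag3 and Stip1. This gave 77 of the 18854 genes in the table, namely 14 HSP70, 3 HSP90, 2 small HSP, 2 HSP60 and HSP10, 9 CCT, 41 DNAJ and 4 regulator genes. Hspbp1 and Hspbap1 were also caught by the name pattern and belong to none of these groups. The p53 activator group held 2 libraries of wild-type neurons kept 15 days in culture and then given Nutlin-3, a small molecule that keeps Mdm2 from binding p53, for 2 days. The DMSO group held 2 libraries of wild-type neurons from the same kind of culture, whose titles name DMSO and whose treatment label says untreated. Mouse strain, age at dissection and drug dose are not in the labels. No label says whether the 2 libraries of a group were grown separately, and p-values therefore reflect the spread among these 4 samples alone, part or all of which may be technical.

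Chaperones bind unfolded or partly folded proteins and let them fold, refold or pass on to degradation. HSP70 proteins do this in cycles of ATP use, in which a J protein of the DNAJ family delivers the client and starts ATP hydrolysis, and a nucleotide exchange factor resets the HSP70. HSP90 acts later on signalling proteins, and CCT is a closed ring that folds actin and tubulin, both abundant in neurites. The transcription factor Hsf1 raises the inducible members after heat or proteotoxic stress, while many of the genes are transcribed at a steady level in unstressed neurons.

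Values were CPM, reads scaled to the library's total, and rested on 19065197 and 17716272 reads in the p53 activator libraries and 14584247 and 14968028 reads in the DMSO libraries. The share of reads on nuclear protein-coding genes was 84.4% and 83.8% with the p53 activator and 74.8% and 77.1% with DMSO, with 95% Wilson intervals of at most ±0.0223 points, which cover counting error only. CPM of most coding genes therefore stood beside a larger coding share in the activator libraries. Neuronal markers summed to 7397 and 7527 CPM in the p53 activator libraries and to 6420 and 7194 CPM in the DMSO libraries, and 6 of the 8 were called higher and 1 lower. Astrocyte markers summed to 1163 and 1132 CPM in the p53 activator libraries and to 1073 and 1035 CPM in DMSO, with 0 of 7 called. Of 8 oligodendrocyte lineage markers 6 were in the table, summing to 65.8 and 69.7 CPM in the p53 activator libraries and 60.2 and 61.1 CPM in DMSO, with 0 called. Of the 5 endothelial markers Kdr was in it and was called higher (1.10 and 1.24 CPM with the activator, 0.343 and 0.601 CPM with DMSO), and of 7 microglial markers 3 were in it, summing to 3.67 and 2.88 CPM in the p53 activator libraries and 4.53 and 4.34 CPM in DMSO. The part of these shifts in the results was not tested, and in bulk RNA fewer cells of a type and less RNA per cell cannot be told apart. The p53 targets Mdm2 (log2 fold change -0.16, limma adjusted p = 0.166) and Cdkn1a (0.19, adjusted p = 0.215) were not called.

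Most abundant chaperone genes stood slightly higher with the p53 activator. The 77 genes together summed to 6768 and 6845 CPM in the p53 activator libraries, against 5783 and 5899 CPM in the DMSO libraries. Of 73 members that passed the filter on low values (at least 1 CPM in at least 2 libraries), 27 rose and 4 fell at a limma adjusted p under 0.05, adjusted over all genes tested. That is 37.0% of the tested members higher, beside 16.9% of all 16654 genes and 20.8% of nuclear protein-coding genes, while 16.3% of all genes and 7.45% of nuclear protein-coding genes fell. The median log2 fold change of CPM + 1 was 0.18 for the members, 0.09 for nuclear protein-coding genes and 0.03 for all genes. In 47 members both p53 activator libraries lay above both DMSO libraries and in 13 below, against 44.5% and 20.3% of nuclear protein-coding genes. The changes were small: they ran from -0.57 for Dnajc21 to 0.48 for Dnaja3 on the log2 scale. The 4 members below the filter were Hspa1a, Cct6b, Dnajb7 and Dnajb13.

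**Figure D1:**
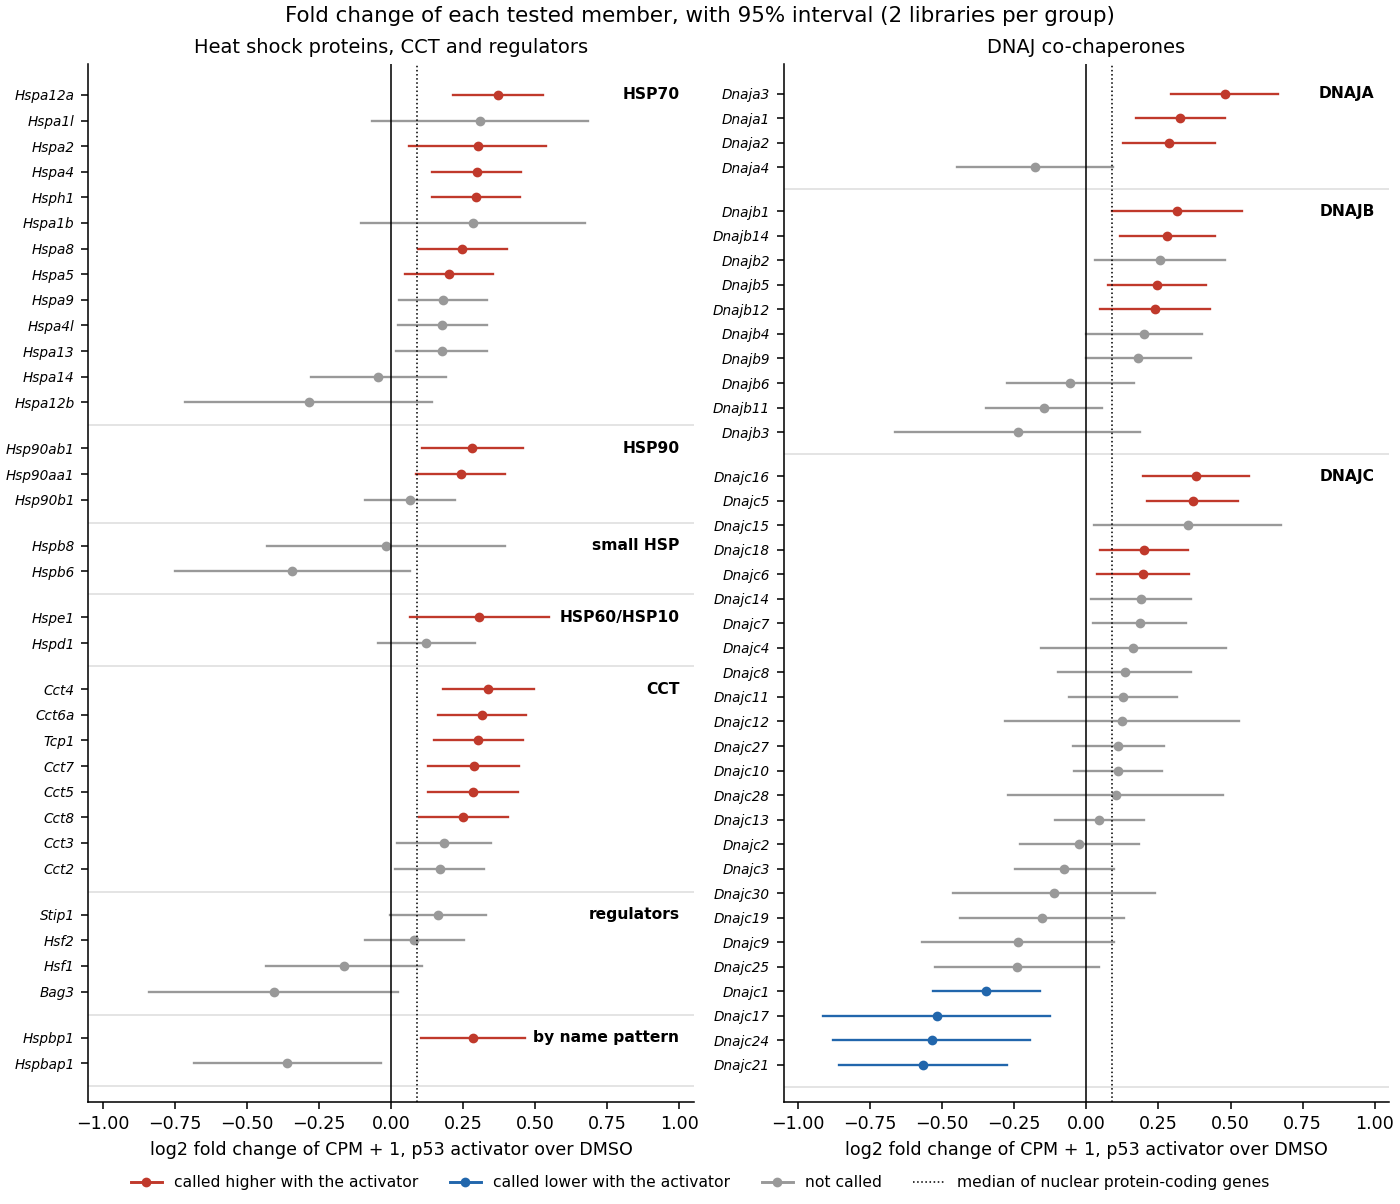
Log2 fold change of CPM + 1 (p53 activator over DMSO, 2 libraries per group) of each of the 73 tested members, with its 95% limma interval; red points were called higher, blue lower, grey neither, and the dotted line is the median of nuclear protein-coding genes. The 6 red CCT points and the 6 red HSP70 points lie between 0.20 and 0.37, and the 4 blue points are all DNAJC genes; Dnajc6 turned to -0.01 when coding genes were aligned by cyclic loess.

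Calls were more frequent among abundant genes, both among chaperones and among coding genes at large. Of 22 members with a mean of at least 100 CPM, 15 rose (median log2 fold change 0.24), where 52.5% of the 1988 nuclear protein-coding genes at that level rose (median 0.20). Between 50 and 100 CPM 5 of 13 members rose (median 0.18), beside 39.6% of coding genes (median 0.16), and between 10 and 50 CPM 7 of 22 rose and 2 fell (median 0.13), beside 17.3% and 7.21% (median 0.10). Under 10 CPM 0 of 16 rose and 2 fell, beside 2.11% and 8.57% of coding genes. Across the 73 members, which share the same 4 libraries, mean CPM and log2 fold change had a Spearman rho of 0.49, and across 13186 coding genes 0.38. Gene span, taken from RefSeq, had a rho of -0.13 with the fold change across the members.

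**Figure D2:**
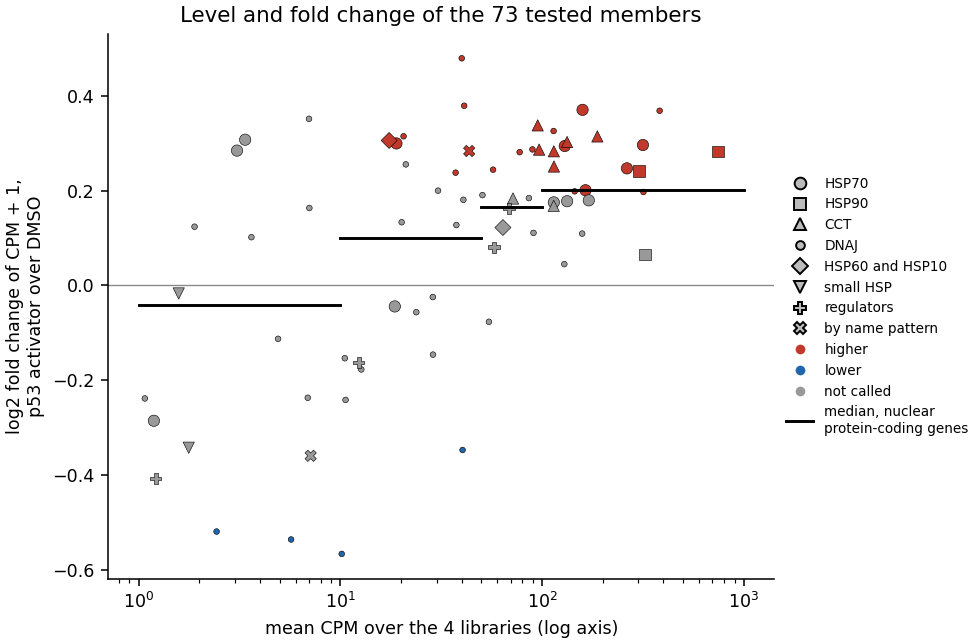
Mean CPM over the 4 libraries (log axis) and log2 fold change of CPM + 1 (p53 activator over DMSO) of the 73 tested members, with the marker giving the group and the colour the call; black bars are the medians of nuclear protein-coding genes in each range of CPM. The bars step up from -0.04 under 10 CPM to 0.20 at 100 CPM and above, and 15 of the 22 members in the top range are red.

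Among HSP70 genes Hspa8, Hspa4, Hsph1, Hspa12a, Hspa5 and Hspa2 rose, and the heat-inducible copies had few reads. Of 14 genes 13 were tested, 6 rose and 0 fell, with a median log2 fold change of 0.25, and 11 of the 13 had both p53 activator libraries above both DMSO libraries. Such a gap was present in 44.5% of tested nuclear protein-coding genes. Of those coding genes 20.8% rose, and 52.5% of the ones with a mean of at least 100 CPM. Hspa8, the constitutive Hsc70 that also strips clathrin from vesicles, had 275 and 298 CPM in the p53 activator libraries, against 239 and 243 CPM in DMSO. The groups did not overlap, and the log2 fold change was 0.25 ± 0.08 (SE; limma adjusted p = 0.00925). Hspa8 and the HSP90 genes have many processed copies in the genome, so their counts are uncertain where reads fit a copy as well.

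The HSP110 proteins Hspa4, Hsph1 and Hspa4l exchange nucleotide on HSP70. Hspa4 had 353 and 344 CPM in the p53 activator libraries, against 279 and 289 CPM in DMSO, a 1.23-fold difference (log2 fold change 0.30 ± 0.08 SE, adjusted p = 0.00185). Hsph1 had 143 and 143 CPM in the p53 activator libraries, against 118 and 115 CPM in DMSO, likewise 1.23-fold (0.29 ± 0.08 SE, adjusted p = 0.00177). Hspa4l, at 138 and 145 CPM with the activator and 127 and 122 CPM with DMSO, did not pass the test (0.18, adjusted p = 0.0657), although its groups did not overlap. Hspa12a, a distant relative of HSP70 that is abundant in brain, had the smallest p of the tested HSP70 genes, with 176 and 182 CPM in the p53 activator libraries and 129 and 148 CPM in DMSO (0.37 ± 0.08 SE, adjusted p = 9.46e-05). Hspa2 was at 18.9 and 23.2 CPM with the activator and at 15.2 and 18.6 CPM with DMSO, libraries that nearly touched (0.30 ± 0.12 SE, adjusted p = 0.0443).

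A heat shock element is a run of GAA units in alternating orientation, which Hsf1 binds. A run of 3 units, GAANNTTCNNGAA or TTCNNGAANNTTC, were looked for on both strands of RefSeq promoter windows, from 250 bases before to 50 bases after each gene start (GRCm38.p6), which 64 of the 77 members had. They were present in windows of 4 members, Hsph1, Hspd1, Hspe1 and Dnajb6. Of all 32851 windows 0.603% held a run, and of all 27025 genes with a window 0.662%. Only exact runs were counted, and the windows of Hspa1a, Hspa1b and Dnajb1 held 0. Hspa8, Hsp90aa1 and Hsp90ab1 had no window. A pair of units, GAANNTTC or TTCNNGAA, of which each triplet holds 2, was present in 17 of the 64 members and in 17.0% of all 27025 genes with a window. The median log2 fold change was 0.21 over the 4 tested members with a triplet and 0.18 over the 56 without. For the pair it was 0.15 over the 16 tested members with 1 and 0.18 over the 44 without. These differences were not tested. The window of Hsph1 is shown because it is the called HSP70 gene with such a run, marked in capitals, which begins 15 bases after the start base (chr5:149636266-149636565, minus strand).
Hsph1: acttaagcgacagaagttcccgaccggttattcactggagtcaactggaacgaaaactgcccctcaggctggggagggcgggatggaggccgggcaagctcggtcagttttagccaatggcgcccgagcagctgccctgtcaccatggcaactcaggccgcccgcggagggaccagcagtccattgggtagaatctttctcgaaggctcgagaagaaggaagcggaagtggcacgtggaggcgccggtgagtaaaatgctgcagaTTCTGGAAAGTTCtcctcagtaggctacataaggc

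The stress-inducible HSP70 genes Hspa1a and Hspa1b, near-identical neighbours whose reads may be split between them, were at the low end of the table. Hspa1b had 2.68 and 4.35 CPM in the p53 activator libraries, against 2.61 and 2.67 CPM in DMSO, and did not pass the test (0.28 ± 0.20 SE, adjusted p = 0.270). Hspa1a had 0.944 and 1.41 CPM in the p53 activator libraries, against 0.754 and 0.601 CPM in DMSO, which is 18 and 25 reads against 11 and 9 reads, and was not tested. Hspa1l, another gene of that cluster, had 3.72 and 3.95 CPM with the activator and 2.81 and 3.01 CPM with DMSO (0.31, adjusted p = 0.209). Mitochondrial Hspa9, or mortalin, had 186 and 176 CPM in the p53 activator libraries, against 159 and 160 CPM in DMSO. Its groups did not overlap but it missed the threshold (0.18 ± 0.08 SE, adjusted p = 0.0606). The remaining Hspa13 (0.18), Hspa14 (-0.04) and Hspa12b (-0.29) were not called.

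The HSP70 calls leaned on single libraries and on the scaling. Those of Hspa12a, Hspa4 and Hsph1 held without each library in turn. Hspa8 lost its call without p53 activator replicate 2 (adjusted p = 0.173) or DMSO replicate 1 (0.0789), Hspa2 without the same libraries (0.469 and 0.481), and Hspa5 without p53 activator replicate 2 (0.267), DMSO replicate 1 (0.155) or DMSO replicate 2 (0.116). With coding genes scaled to the sum of their own reads, which put the median of nuclear coding genes at -0.04 in place of 0.09, only Hspa12a of the HSP70 genes was still called (0.22, adjusted p = 0.0194).

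**Figure D3:**
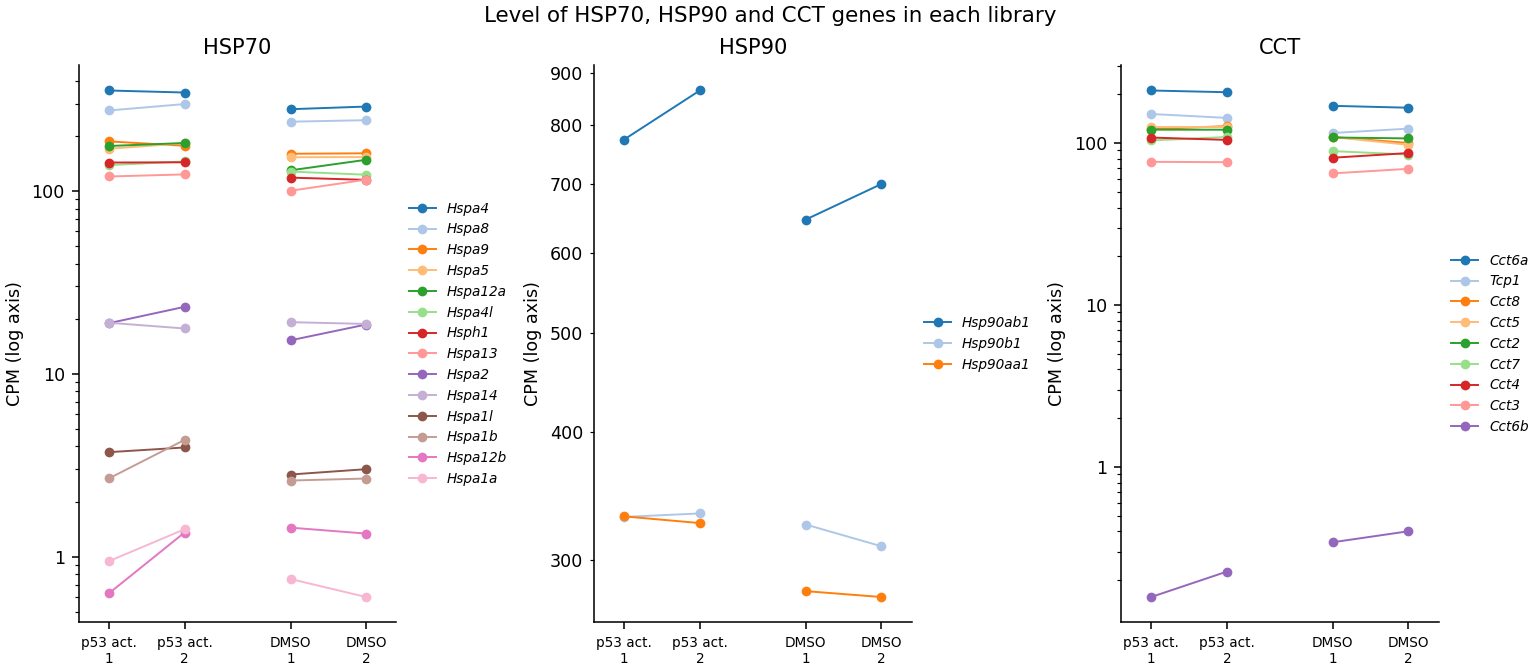
CPM (log axis) of all HSP70, HSP90 and CCT genes in the 2 p53 activator libraries and the 2 DMSO libraries, with a line joining the 2 libraries of a group. All 8 CCT subunits between 65.0 and 211 CPM and all 3 HSP90 genes stood higher in both p53 activator libraries than in both DMSO libraries, as CPM. So did 44.5% of tested nuclear protein-coding genes. Cct6b stood lower, at under 1 CPM.

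Of the 3 HSP90 genes the cytosolic pair rose, and the form of the endoplasmic reticulum did not pass the test. All 3 had a mean of at least 100 CPM, a level at which 52.5% of nuclear protein-coding genes rose. Hsp90ab1, the constitutive cytosolic form and the most abundant member, had 774 and 865 CPM in the p53 activator libraries, against 646 and 700.5 CPM in DMSO, a log2 fold change of 0.28 ± 0.09 (SE; adjusted p = 0.00908). Hsp90aa1, the inducible cytosolic form, had 331 and 326 CPM in the p53 activator libraries, against 279 and 276 CPM in DMSO (0.24 ± 0.08 SE, adjusted p = 0.0114). Hsp90b1, the reticulum form also called Grp94, had 330.3 and 333 CPM with the activator and 325 and 309 CPM with DMSO (0.07 ± 0.08 SE, adjusted p = 0.554), and the difference between the 3 genes was not tested. Per kilobase of the transcript with the longest coding sequence, the mean level of Hsp90ab1 was 325 CPM in the p53 activator group and 267 CPM in DMSO, above Hsp90b1 (117 and 112 CPM) and Hsp90aa1 (100.04 and 84.6 CPM). The Hsp90aa1 call was lost without any 1 of the 4 libraries (adjusted p = 0.0547 to 0.0924), and that of Hsp90ab1 without p53 activator replicate 2 (0.258) or DMSO replicate 1 (0.0969). In edgeR with TMM on whole reads, and with coding genes scaled to their own total, 0 HSP90 genes were called.

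The chaperones of the endoplasmic reticulum, which the unfolded protein response raises, were called in part. Hspa5, the HSP70 of the reticulum also called BiP, had 169.8 and 182 CPM in the p53 activator libraries, against 153 and 153 CPM in DMSO (0.20 ± 0.08 SE, adjusted p = 0.0345). Among the reticulum J proteins Dnajb9 (0.18, adjusted p = 0.122), Dnajb11 (-0.15, 0.277), Dnajc10 (0.11, 0.280) and Dnajc3 (-0.08, 0.526) were not called. Of the membrane J proteins of the reticulum, Dnajc1 fell, and Dnajb14 (0.28, adjusted p = 0.00553) and Dnajb12 (0.24, 0.0449) rose. Outside the members Hyou1, the HSP110 of the reticulum, rose as well (0.48, adjusted p = 7.48e-07). The ER stress element, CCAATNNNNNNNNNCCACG, was looked for on both strands and was present in the windows of Hspa5, Hsp90b1 and Dnajc3 among the 64 members. It was present in 0.119% of all windows and in 0.137% of all genes with a window. Of these 3 genes 1 was called. The windows of Hspa5, with 1 copy from 65 to 47 bases upstream, and of Hsp90b1, with 2 copies between 212 and 89 bases upstream, are shown as a called and an uncalled gene with the same element, in capitals (chr2:34771840-34772139, plus strand, and chr10:86705395-86705694, minus strand, GRCm38.p6).
Hspa5: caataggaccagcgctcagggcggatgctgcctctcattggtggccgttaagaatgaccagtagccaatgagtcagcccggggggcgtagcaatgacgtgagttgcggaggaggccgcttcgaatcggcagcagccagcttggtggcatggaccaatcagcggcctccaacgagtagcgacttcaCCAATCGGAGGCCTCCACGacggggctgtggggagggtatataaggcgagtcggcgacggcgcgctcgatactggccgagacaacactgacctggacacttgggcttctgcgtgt
Hsp90b1: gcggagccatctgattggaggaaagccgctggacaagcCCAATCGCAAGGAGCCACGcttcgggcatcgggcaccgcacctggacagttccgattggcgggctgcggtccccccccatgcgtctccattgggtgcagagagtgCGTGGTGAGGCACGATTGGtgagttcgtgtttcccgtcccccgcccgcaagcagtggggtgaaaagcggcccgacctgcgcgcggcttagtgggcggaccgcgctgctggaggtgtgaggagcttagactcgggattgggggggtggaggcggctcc

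HSP60 and HSP10 form the folding chamber of the mitochondrial matrix, and only the smaller partner was called. Hspe1, or HSP10, had 18.5 and 20.3 CPM in the p53 activator libraries, against 16.6 and 14.4 CPM in DMSO (0.31 ± 0.12 SE, adjusted p = 0.0420). Hspd1, or HSP60, had 64.7 and 68.6 CPM with the activator and 65.6 and 57.0 CPM with DMSO, so that the groups overlapped (0.12 ± 0.09 SE, adjusted p = 0.276). The Hspe1 call was lost without p53 activator replicate 2 (0.251), DMSO replicate 1 (0.0542) or DMSO replicate 2 (0.310), and under edgeR with TMM (adjusted p = 0.0690). The genes lie head to head: their promoter windows share 285 bases on opposite strands, so the same letters stand before both starts. The Hspd1 window is printed for that reason, with 2 overlapping heat shock triplets in capitals, 144 to 127 bases before the Hspd1 start (chr1:55087883-55088182, minus strand, GRCm38.p6).
Hspd1: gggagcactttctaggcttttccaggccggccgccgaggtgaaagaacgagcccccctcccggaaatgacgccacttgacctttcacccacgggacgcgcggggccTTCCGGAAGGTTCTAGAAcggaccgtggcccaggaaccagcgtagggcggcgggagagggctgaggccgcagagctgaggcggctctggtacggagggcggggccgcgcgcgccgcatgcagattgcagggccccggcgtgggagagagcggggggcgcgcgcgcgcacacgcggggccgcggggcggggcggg

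Small heat shock proteins hold unfolded clients without ATP, and the transcripts of the 2 members of this group were barely present. Hspb6 had 1.42 and 1.47 CPM in the p53 activator libraries, against 2.26 and 1.94 CPM in DMSO (-0.34 ± 0.21 SE, adjusted p = 0.196). Hspb8, a partner of Bag3 in selective autophagy, had 1.78 and 1.35 CPM with the activator and 1.58 and 1.60 CPM with DMSO (-0.02 ± 0.21 SE, adjusted p = 0.958). Those values rest on 23 to 34 reads per library. Hspb1 was not analysed here.

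The CCT subunits stood higher with the p53 activator. Of the 9 CCT genes 8 were tested, 6 rose and 0 fell, and in all 8 both p53 activator libraries lay above both DMSO libraries. Such a gap was present in 44.5% of tested nuclear protein-coding genes. At the levels of these subunits many coding genes rose: 39.6% between 50 and 100 CPM and 52.5% at 100 CPM and above. The median log2 fold change was 0.29 and the range 0.17 to 0.34, with ratios of mean CPM from 1.12 to 1.27. Summed over the 9 genes the level was 1019 and 1013 CPM in the p53 activator libraries, against 847 and 834 CPM in the DMSO libraries. Cct4 had 108 and 105 CPM in the p53 activator libraries, against 81.2 and 86.8 CPM in DMSO (0.34 ± 0.08 SE, adjusted p = 0.000490). Cct6a, the most abundant by CPM, had 211 and 206 CPM in the p53 activator libraries, against 169.8 and 165 CPM in DMSO (0.31 ± 0.08 SE, adjusted p = 0.000744). Tcp1, which encodes the subunit CCT1, had 151 and 143 CPM with the activator and 115 and 123 CPM with DMSO (0.30 ± 0.08 SE, adjusted p = 0.00136).

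Cct7 (104 and 109 CPM in the p53 activator libraries, 89.2 and 84.9 CPM in DMSO), Cct5 (126 and 126 CPM, against 109 and 97.5 CPM in DMSO) and Cct8 (122 and 127 CPM, against 109 and 100.1 CPM in DMSO) also rose, by 0.29, 0.28 and 0.25 on the log2 scale (adjusted p = 0.00303, 0.00314 and 0.00887). Cct3 (0.18, adjusted p = 0.0750) and Cct2 (0.17, adjusted p = 0.0859) missed the threshold. Cct6b, a testis form of the subunit, had 0.157 and 0.226 CPM in the p53 activator libraries and 0.343 and 0.401 CPM in DMSO, 3 to 6 reads per library, and was not tested. Since the ring holds 1 copy of each subunit on each side, levels per transcript length are of interest. Over the 7 tested subunits with a length they ran from 38.6 to 67.8 CPM per kilobase in the p53 activator group. In the DMSO group they ran from 33.8 to 55.7 CPM per kilobase. Cct6a, the most abundant subunit by CPM, had no length and is missing from both ranges. Calls of Cct4 and Cct6a held without each library in turn. Those of Tcp1 (adjusted p = 0.0603 without DMSO replicate 1), Cct7 (0.0573 without DMSO replicate 2), Cct5 (0.124 without DMSO replicate 2) and Cct8 (0.159 without DMSO replicate 2 and 0.0896 without p53 activator replicate 2) did not. With coding genes scaled to their own total the CCT median stayed positive at 0.14, above the -0.04 of nuclear coding genes, but 0 subunits were called, and 0 after cyclic loess, where the medians were 0.12 and 0.01.

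Of 41 DNAJ genes 39 were tested, 11 rose and 4 fell. The 28.2% that rose stand beside 20.8% of nuclear protein-coding genes, and the 4 that fell beside 7.45% of them. The median log2 fold change was 0.13, beside 0.09 for nuclear protein-coding genes, and with coding genes scaled to their own total, which lowered coding genes as a whole, the medians were -0.01 and -0.04. Of the 4 DNAJA genes 3 rose, of 10 tested DNAJB genes 4 rose, and of 25 DNAJC genes 4 rose and 4 fell, with medians of 0.31, 0.22 and 0.11. DNAJA and DNAJB proteins mostly serve HSP70 as general client carriers, whereas each DNAJC protein ties HSP70 to a particular place or task.

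Dnaja3, the J protein of the mitochondrial matrix that works with Hspa9, had the largest rise of the tested members. It had 48.7 and 44.8 CPM in the p53 activator libraries, against 32.6 and 33.8 CPM in DMSO, a 1.41-fold difference with a wide gap between the groups. The log2 fold change was 0.48 ± 0.09 (SE; adjusted p = 2.49e-05), and Dnaja3 was called under all 14 alternatives tried, including both scalings to coding genes (0.34 and 0.36) and each library left out (0.42 to 0.54). The cytosolic Dnaja1 had 129 and 125 CPM in the p53 activator libraries, against 102 and 100.3 CPM in DMSO (0.33 ± 0.08 SE, adjusted p = 0.000599), and held without each library in turn. Dnaja2 had 99.8 and 97.4 CPM with the activator and 82.2 and 79.0 CPM with DMSO (0.29 ± 0.08 SE, adjusted p = 0.00318; 0.0520 without DMSO replicate 2). Dnaja4 was not called (-0.18, adjusted p = 0.331).

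The DNAJC genes of synapses were abundant. Dnajc5, which encodes the cysteine string protein that keeps SNAP-25 folded on synaptic vesicles, had 439 and 425 CPM in the p53 activator libraries, against 325 and 343 CPM in DMSO (0.37 ± 0.08 SE, adjusted p = 0.000146). It held without each library in turn and with coding genes scaled to their own total (0.22, adjusted p = 0.0142). The call was lost after cyclic loess (0.16, adjusted p = 0.0889) and without a trend of the spread with expression (adjusted p = 0.0557). Dnajc6, or auxilin, which recruits Hspa8 to clathrin coats, had 341 and 338 CPM with the activator and 272 and 322 CPM with DMSO, where the DMSO libraries differed more from each other than the nearer of them did from the activator. Its log2 fold change of 0.20 ± 0.08 (SE; adjusted p = 0.0468) was lost without p53 activator replicate 1 (0.184), p53 activator replicate 2 (0.148) or DMSO replicate 1 (0.632), and turned to -0.01 after cyclic loess. Dnajc13, an endosomal J protein, had 131 and 131 CPM with the activator and 123 and 131 CPM with DMSO and was not called (0.05, adjusted p = 0.693).

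Other DNAJ genes that rose were smaller in level or difference. Dnajc16 had 44.4 and 48.8 CPM in the p53 activator libraries, against 34.7 and 36.5 CPM in DMSO (0.38 ± 0.09 SE, adjusted p = 0.000764), and held without each library in turn. Dnajb1, the main heat-inducible HSP40, had 23.4 and 22.5 CPM with the activator and 18.0 and 18.5 CPM with DMSO (0.31 ± 0.11 SE, adjusted p = 0.0245), a call lost without any 1 library (0.0609 to 0.149). Dnajb14 and Dnajb12, a pair of reticulum membrane J proteins, rose by 0.28 and 0.24 on the log2 scale, and Dnajb5 and Dnajc18 by 0.24 and 0.20. Dnajb14 was lost without p53 activator replicate 1 (0.107) or DMSO replicate 1 (0.256), Dnajb12 without p53 activator replicate 2 (0.382) or DMSO replicate 1 (0.401), Dnajb5 without p53 activator replicate 2 (0.122), DMSO replicate 1 (0.122) or DMSO replicate 2 (0.0980), and Dnajc18 without any 1 library (0.0721 to 0.207).

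The 4 genes that fell were all DNAJC genes, and their values were low except for Dnajc1. Dnajc21, a factor of ribosome biogenesis, had 8.08 and 7.90 CPM in the p53 activator libraries, against 12.9 and 11.8 CPM in DMSO (-0.57 ± 0.15 SE, adjusted p = 0.00144), and was called under all 14 alternatives. Dnajc24, which acts in diphthamide synthesis on elongation factor EF2, had 4.25 and 4.68 CPM with the activator and 6.51 and 7.35 CPM with DMSO (-0.54 ± 0.17 SE, adjusted p = 0.0109). Dnajc17, a nuclear J protein with an RNA-binding domain, had 1.78 and 1.86 CPM in the p53 activator libraries, against 3.09 and 3.01 CPM in DMSO (-0.52 ± 0.20 SE, adjusted p = 0.0340). Dnajc1 had 36.7 and 34.1 CPM with the activator and 47.7 and 43.0 CPM with DMSO (-0.35 ± 0.09 SE, adjusted p = 0.00223). With coding genes scaled to their own total all 4 were called lower, at -0.49 to -0.71, whereas DESeq2 did not call Dnajc24 (adjusted p = 0.0846) or Dnajc17 (0.198). Leaving out 1 library ended the call of Dnajc17 in every case (0.0895 to 0.168), that of Dnajc24 without p53 activator replicate 1 (0.0758) or DMSO replicate 2 (0.101), and that of Dnajc1 without DMSO replicate 1 (0.118).

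Of the 4 regulators, limma, edgeR and DESeq2 each called 0, and in limma 0 had an unadjusted p under 0.05. Hsf1, the main heat shock transcription factor, had 11.4 and 11.7 CPM in the p53 activator libraries, against 14.3 and 11.9 CPM in DMSO (-0.16 ± 0.14 SE, adjusted p = 0.380). Hsf2, its developmental relative, had 63.9 and 55.1 CPM with the activator and 56.4 and 55.7 CPM with DMSO (0.08 ± 0.09 SE, adjusted p = 0.503). Bag3, an Hsf1 target, had 0.577 and 1.24 CPM with the activator and 1.17 and 1.87 CPM with DMSO, with overlapping groups (-0.41 ± 0.22 SE, adjusted p = 0.141; called lower without p53 activator replicate 2, adjusted p = 0.0454). Stip1, or Hop, which hands clients from HSP70 to HSP90, had 66.7 and 78.6 CPM with the activator and 64.0 and 65.1 CPM with DMSO (0.16 ± 0.08 SE, adjusted p = 0.128; called higher without p53 activator replicate 1, adjusted p = 0.0267). Hsf1 and Hsf2 are controlled mainly as proteins, so that their mRNA says little of their activity. Of the genes caught by name alone, Hspbp1, an exchange factor of HSP70, had 50.1 and 45.7 CPM in the p53 activator libraries, against 39.4 and 38.9 CPM in DMSO (0.28 ± 0.09 SE, adjusted p = 0.0109; lost without p53 activator replicate 1, 0.136, DMSO replicate 1, 0.0785, or DMSO replicate 2, 0.0705). Hspbap1 did not pass (-0.36, adjusted p = 0.0789).

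A list of 49 other chaperones and co-chaperones, none of them a member and drawn up with earlier results of these data known, gave the following counts. Of 47 tested, 17 rose and 0 fell, with a median log2 fold change of 0.20, beside the shares of coding genes given above. Hyou1, the HSP110 of the reticulum, had 118 and 128 CPM in the p53 activator libraries, against 83.1 and 92.4 CPM in DMSO (0.48 ± 0.08 SE, adjusted p = 7.48e-07), and was called under all 14 alternatives. The ubiquilins Ubqln2 (189.9 and 218 CPM with the activator, 155 and 158 CPM with DMSO) and Ubqln1 (148 and 158 CPM with the activator, 118 and 123 CPM with DMSO), which carry clients to the proteasome, rose by 0.38 and 0.34 on the log2 scale. St13, or Hip, which steadies HSP70 on its client, had 194 and 185 CPM in the p53 activator libraries and 149 and 149 CPM in DMSO (0.34 ± 0.08 SE, adjusted p = 0.000250). The calls of these 4 genes held without each library in turn and with coding genes scaled to their own total. After cyclic loess, and likewise without a trend of the spread with expression, only that of Hyou1 held.

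The number of members called depended on the scaling and on the trend of the spread with expression. Without any rescaling 27 members rose and 4 fell, and the member median was 0.18, beside 0.09 for nuclear coding genes. With the trend left out, at the same fold changes, 1 member rose, which was Dnaja3, and 3 fell. With coding genes scaled to their own total 3 rose, which were Dnaja3, Dnajc5 and Hspa12a, and 6 fell. After cyclic loess 2 rose, which were Dnaja3 and Dnajc16, and 3 fell. The member median was 0.04 under either scaling, beside -0.04 for nuclear coding genes with the own total and 0.01 after cyclic loess. Medians of CCT, HSP70 and HSP90 kept a positive sign under all 14 alternatives. Leaving out the filter or the trend, or adding the replicate block, cannot change a member's fold change, so these settings say nothing of the sign. After cyclic loess the medians of HSP70 and HSP90 were 0.05 and 0.04, close to the 0.01 of nuclear coding genes.

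**Figure D4:**
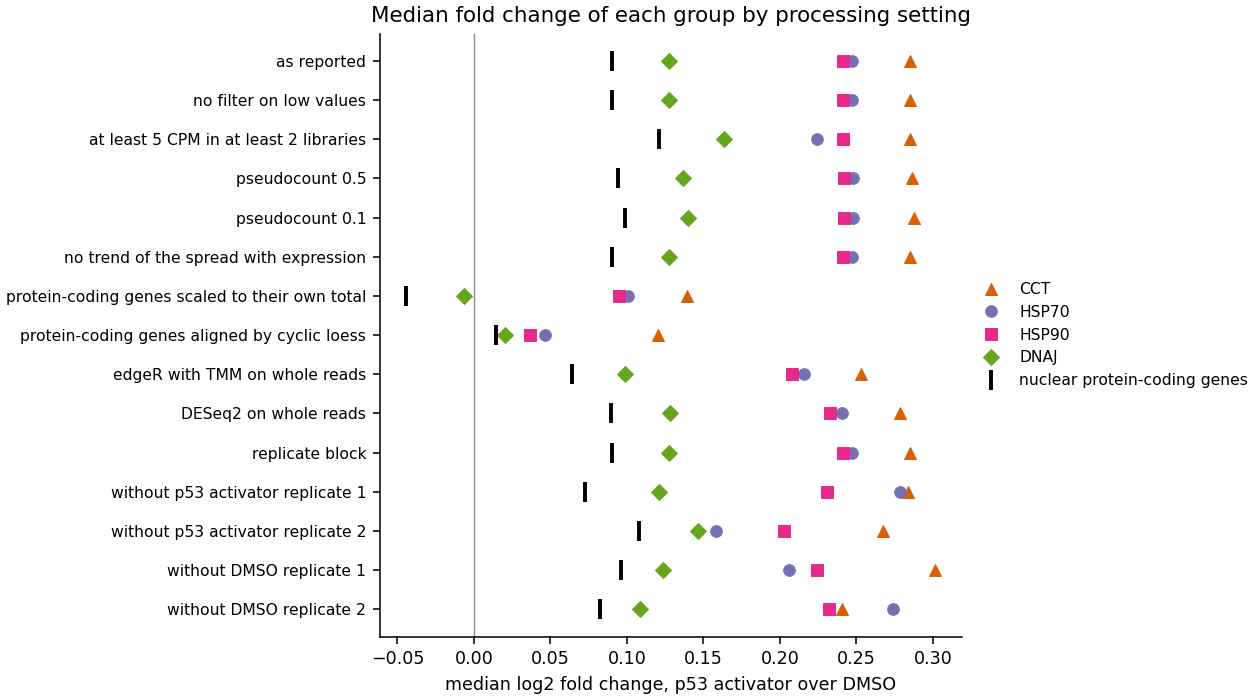
Median log2 fold change (p53 activator over DMSO) of the tested CCT, HSP70, HSP90 and DNAJ genes and, as black bars, of nuclear protein-coding genes, under the reported processing and each of 14 alternatives. CCT runs from 0.12 to 0.30 and is highest of the 4 groups in all but the setting without DMSO replicate 2, while with coding genes scaled to their own total all markers shift to the left, DNAJ to -0.01 and nuclear coding genes to -0.04.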

How the data were processed

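Total RNA (TRIzol) was freed of ribosomal RNA with an NEB kit before the 4 libraries were made, per the labels' protocols. The submitters' processing notes name TopHat2, Cufflinks 2.0.0 and mm9, with no role; the counting tool, strand setting and annotation were not given in the sources used here. The authors deposited 1 table of CPM per gene and library. The unit was read from the values, which gave back whole reads for 100% of entries (within 0.01 reads).

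A gene was tested where 2 or more libraries reached 1 CPM (16654 genes; 2200 were removed, 4 of them members). limma 3.58.1 in R 4.3.3 tested log2(CPM + 1), which understates changes of low genes, with a trend of the spread with expression, Benjamini-Hochberg adjustment over all genes tested and two-sided calls at an adjusted p under 0.05. Moderation set 98.0 prior degrees of freedom beside 2 residual ones, and the calls thus depend mostly on the spread pooled over genes. An exact permutation test of 2 against 2 libraries cannot go below p = 0.333. Replicates differed by more than sampling noise (chi-square per degree of freedom 5.34 for the p53 activator and 4.64 for DMSO). The limma fit was first run on simulated counts. Apart from genes changed on purpose, these had the same levels in both groups, so they cannot show how calls depend on the scaling.

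The members and lists were chosen with earlier results of these data known. Library values are given for a fixed set of genes and, per group, for the called members with the smallest p (up to 5), the most abundant and the most changed member; other values are named in addition. Nuclear protein-coding genes (14301) were those so classed in GENCODE vM21 or RefSeq, by symbol, and transcript lengths are from GENCODE, which is on another build than mm9. Promoter windows and their coordinates are RefSeq's. Alternatives were other pseudocounts (0.5 and 0.1), no filter and 5 CPM, no trend, 2 scalings of coding genes, edgeR 4.0.16 and DESeq2 1.42.0 on whole reads, a replicate block, and leaving out each library.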

Additional observations from a re-analysis of the deposited data

How the results depend on the processing

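Among values of single members under the 14 alternatives, 837 kept their call or lack of one, 155 lost a call and 16 gained one. Only 1 turned, that of Dnajc6 (-0.0081 after cyclic loess), where turns without any call were not counted. Of the 73 tested members 52 had a positive log2 fold change as reported. With coding genes scaled to their own total 43 were positive, and after cyclic loess 45. Where counts of all genes called higher and all genes called lower are given for a setting, they come first. Higher and lower calls were 2811 and 2721 of all genes, 27 and 4 of members, 6 and 0 of HSP70, 2 and 0 of HSP90, 6 and 0 of CCT, 11 and 4 of DNAJ, 1 and 0 of HSP60 and HSP10, 0 and 0 of regulators and of small HSP, 1 and 0 of Hspbp1 with Hspbap1, and 17 and 0 of the co-chaperone list. Without a trend of the spread, 302 genes rose and 1973 fell. Of members 1 rose (0 HSP70, 0 HSP90, 0 CCT, 1 DNAJ, 0 HSP60 or HSP10, 0 of Hspbp1 and Hspbap1) and 3 fell, and 1 co-chaperone rose. With coding genes scaled to their own total, 584 genes rose and 1711 fell. Of members 3 rose (1 HSP70, 0 HSP90, 0 CCT, 2 DNAJ, 0 HSP60 or HSP10, 0 of Hspbp1 and Hspbap1) and 6 fell (5 DNAJ and 1 of that pair). Of co-chaperones 5 rose and 1 fell. After cyclic loess, 607 genes rose and 1308 fell. Of members 2 rose (0 HSP70, 0 HSP90, 0 CCT, 2 DNAJ, 0 in the small groups) and 3 fell, all DNAJ, and 3 co-chaperones rose and 1 fell. These 2 scalings test fewer genes, and the cause was not tested. edgeR with TMM called 1872 genes and 16 members higher (3 HSP70, 0 HSP90, 7 DNAJ, 0 HSP60 or HSP10). DESeq2 called 1307 genes higher and 1508 lower, with 16 members higher and 2 lower (5 and 2 DNAJ, 0 HSP60 or HSP10, 0 of Hspbp1 and Hspbap1) and 9 co-chaperones higher. With no filter 0 HSP60 or HSP10 genes rose, and at 5 CPM 1776 genes fell.

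Leaving out 1 library gave 1138 to 2122 for all genes called higher and 1445 to 2468 for all genes called lower, 13 to 22 members higher and 2 to 4 lower, 3 to 6 HSP70, 0 to 1 HSP90, 3 to 6 CCT, 5 to 7 DNAJ, 0 to 1 HSP60 or HSP10, 0 to 1 regulators and 0 to 1 of Hspbp1 and Hspbap1 higher, 2 to 3 DNAJ and 0 to 1 regulators lower, and 10 to 11 co-chaperones higher and 0 to 1 lower. Without p53 activator replicate 1, p53 activator replicate 2, DMSO replicate 1 or DMSO replicate 2, 21, 15, 13 and 16 of the 27 higher members remained called. A lone library is assumed to vary like the other group. The replicate numbers of the titles pair the libraries only by number: the deviations of same-numbered libraries had a correlation of 0.12 over 16654 genes. With the replicate block 3705 genes and 37 members rose, among them 1 regulator, and 1 co-chaperone and 1 of Hspbp1 and Hspbap1 fell; all 27 higher and 4 lower members kept their calls.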
